A study of Mus musculus with 8 samples.

Results

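The NF-kB pathway was examined through 10 genes in mouse C26 colon carcinoma tumors with and without a disrupted Il6 gene. These were the genes of the 5 subunits of the transcription factor (Nfkb1, Nfkb2, Rela, Relb and Rel), of 3 proteins of the IkB family (Nfkbia, Nfkbie and Nfkbiz) and of 2 feedback proteins (Tnfaip3 and Birc3). They were selected by gene symbol, from a list drawn up with earlier results of these data known, and each symbol had 1 row among the 27179 genes of the expression table. RNA was sequenced from 8 subcutaneous tumors, each from a different adult CD2F1 male mouse. The 4 cxC26 scr tumors grew from cxC26, a cachectic C26 line, that carried Cas9 and a scrambled guide RNA, and in which Il6 was intact. The 4 cxC26 IL6KOs1 tumors grew from subclone 1 of cxC26 cells that carried Cas9 and guide RNAs against Il6. The knockout cells were made with the lentiCRISPRv2 vector and selected with puromycin, the control is described only as a CRISPR/Cas9 control with a scrambled guide, and the host mice of both groups had an intact Il6 gene. The knockout arm is a single clone, whereas the scrambled control was not described as a subclone. Mice of both groups had cachexia, the loss of body mass that C26 tumors bring about. In the study's experiments with CD2F1 mice followed to cachexia, more knockout than control cells were injected and the knockout tumors were collected later, so that clone, cell number and time cannot be told apart from the loss of Il6 in what follows.

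NF-kB is a family of dimeric transcription factors that IkB proteins hold in the cytoplasm until a signal from cytokine receptors or Toll-like receptors has the IkB degraded. In the canonical arm the IKK complex (Chuk, Ikbkb and Ikbkg) releases dimers of Rela with p50, which is processed from the Nfkb1 product, and in the non-canonical arm the kinase NIK (Map3k14) has the Nfkb2 product p100 processed to p52, which pairs with Relb. Several genes of the pathway are themselves NF-kB targets, among them Nfkb2, Nfkbia, Tnfaip3 and Birc3, and Il6 is a well-known target in tumor cells and macrophages.

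The kB element that the dimers bind shows how the pathway can act on its own genes, so the promoters of the members were searched for it. The RefSeq promoter table for GRCm38.p6, with 250 bases before and 50 after each start, held windows for 7 of the 10 members, and Nfkb1, Relb and Nfkbiz had no entry. The decamer known as the kB consensus was found on either strand in 5 of these 7 genes, against 5.14% of the 27025 genes and 4.51% of the 32851 windows in the table. Nfkb2 held it in each of its 3 windows and Rela and Birc3 had no match in theirs. The matches are given in stretches of 30 bases from 5′ to 3′ on the gene's strand, with the matching decamer in capitals, at chr19:46304688-46304717, chr19:46304716-46304745, chr19:46305449-46305478 and chr19:46305695-46305724 for Nfkb2 (plus strand), at chr11:23771042-23771071 for Rel (minus), at chr12:55492657-55492686 for Nfkbia (minus), at chr17:45555584-45555613 for Nfkbie (plus) and at chr10:19015516-19015545 and chr10:19015403-19015432 for Tnfaip3 (minus).
Nfkb2 site a: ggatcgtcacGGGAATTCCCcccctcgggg
Nfkb2 site b: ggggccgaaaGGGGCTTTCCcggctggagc
Nfkb2 site c: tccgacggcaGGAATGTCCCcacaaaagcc
Nfkb2 site d: tggtattttcGGGACTTTCCtaagcagcac
Rel: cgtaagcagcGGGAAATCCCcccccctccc
Nfkbia: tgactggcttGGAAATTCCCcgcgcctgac
Nfkbie: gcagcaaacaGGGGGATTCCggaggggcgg
Tnfaip3 site a: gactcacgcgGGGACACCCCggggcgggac
Tnfaip3 site b: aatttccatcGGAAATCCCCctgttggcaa
Nfkb2 site a and the Rel match each had a second match shifted by 1 base on the opposite strand. The match nearest a start was Nfkb2 site b, whose centre lay 6 bases before it, and the Nfkbia match was centred 24 bases before its start. A match describes letters in these windows, and binding was not measured.

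Between 14158989 and 17048062 reads per tumor had been counted on genes, and the groups overlapped in depth. Expression is given as log2 CPM, the log2 of reads scaled to library size, and a difference of 1 is a 2-fold change. Of the 13262 genes tested with limma, 2529 rose and 2748 fell in cxC26 IL6KOs1 tumors at an adjusted p under 0.05. Reads of Il6, the target of the guide RNAs, numbered 356, 326, 376 and 438 in the controls and 64, 56, 86 and 59 in the knockout tumors. Marker genes of leukocytes moved with the group: all 7 macrophage markers rose, and their mean level was 6.24 to 6.54 log2 CPM in cxC26 scr and 7.29 to 7.95 in cxC26 IL6KOs1 tumors. All 4 tested T cell markers, 6 cytotoxic lymphocyte markers and 4 mast cell markers rose. So did 4 of 5 pan-leukocyte and 2 of 3 tested B and plasma cell markers, while Cd3d, Cd3e and Gzma were too low to test. Testing required 1 CPM in 4 or more tumors. Cd3g, Trac, Cd2, Nkg7, Klrk1, Cd8a, Cd8b1 and Jchain stayed below 1 CPM in every control and exceeded it in every knockout tumor. They were thus tested only through the knockout group, and the filter set the direction of their change. Control counts ran from 0 to 3 for Cd8a and from 1 to 15 for Jchain. Cytip, a pan-leukocyte marker, fell, and so did 1 of 2 tested dendritic cell, 1 of 4 neutrophil, 1 of 6 endothelial, 1 of 6 fibroblast and 3 of 6 cell cycle markers, beside 1 neutrophil, 2 fibroblast and 1 cell cycle marker that rose. Among 7 epithelial carcinoma markers, of which 2 of 3 tested rose, Krt20 was abundant, with 17390 to 22185 reads per tumor, and Krt19 and Vil1 had no more than 3 reads in any tumor. The first cxC26 scr tumor stood apart by base composition, with a median deviation of -0.14 log2 CPM in the lowest of 5 classes of GC content and 0.11 in the highest, against -0.06 to 0.08 in the other tumors. Whole chromosomes also differed between the groups, and the median change of the other genes on a member's chromosome is given beside the member where it matters.

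Of the 10 NF-kB genes, Nfkb2 alone passed the test, with a rise of 1.36-fold in cxC26 IL6KOs1 tumors (95% interval 1.12 to 1.64), and 0 of the 10 fell by the limma test, where 19.1% of all genes tested rose and 20.7% fell. At an unadjusted p under 0.05 Rela and Nfkbie were also higher and no member was lower. The median absolute log2 fold change was 0.24 over the 10 members and 0.30 over all genes tested, and the signed median was 0.14 against -0.00289. In 0 of 10 members did the tumors of one group lie wholly above those of the other, against 37.1% of all genes tested. All 10 were well enough expressed to be tested.

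**Figure D1:**
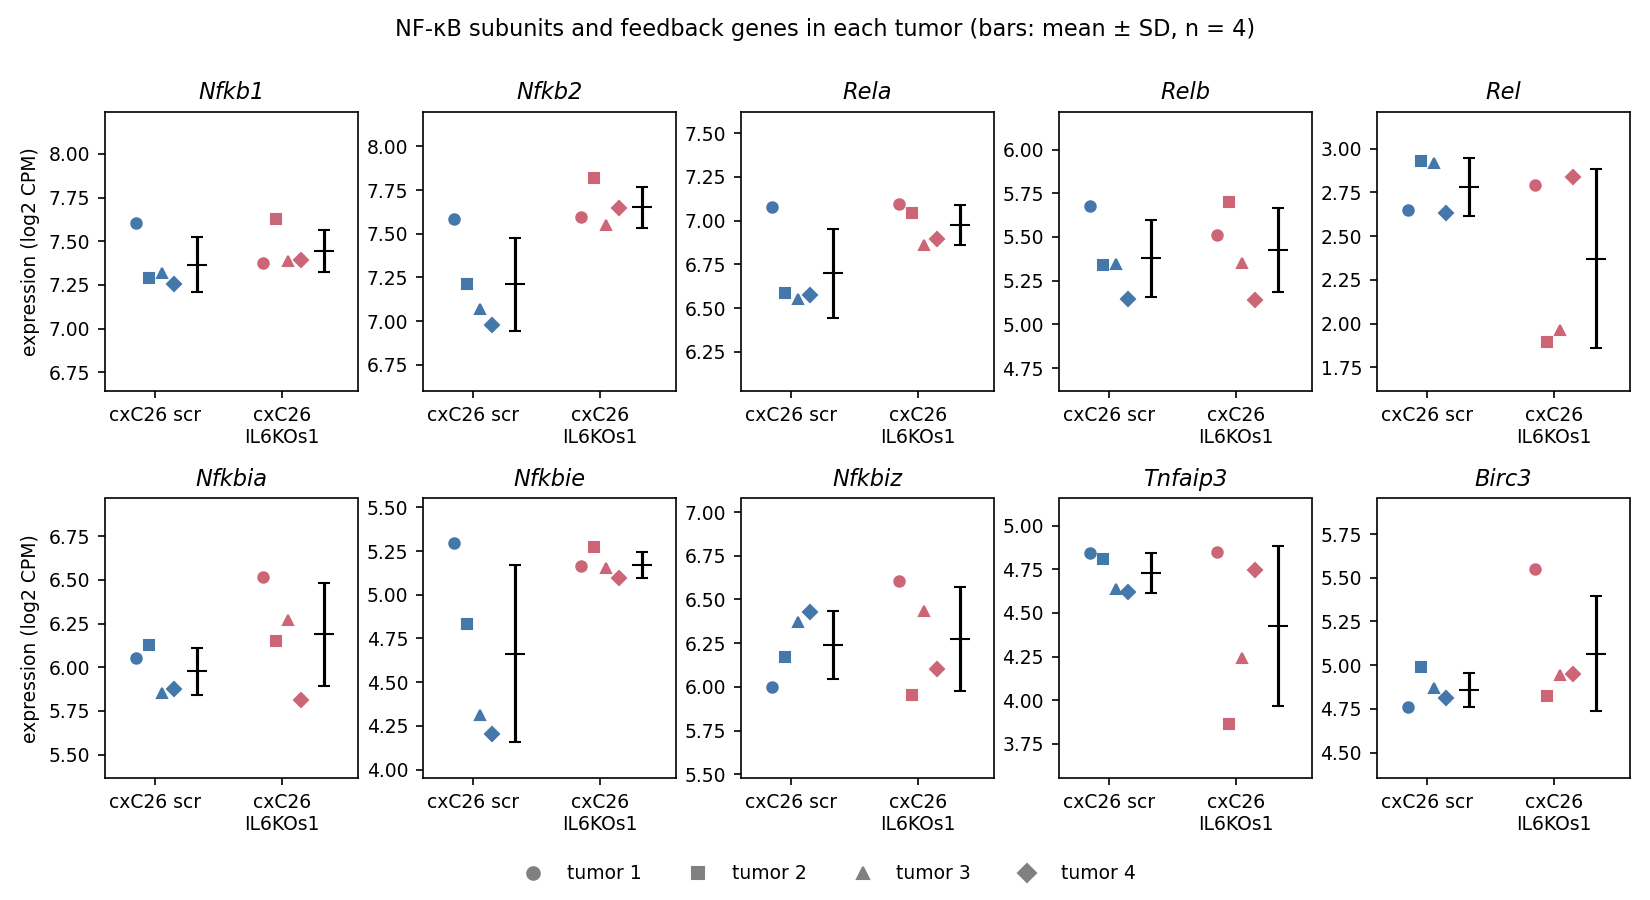
Expression of the 10 NF-kB genes (log2 CPM, vertical axes of equal span) in each of 4 cxC26 scr (blue) and 4 cxC26 IL6KOs1 tumors (red). Symbols give the replicate number, which is not taken as a pairing of tumors, and bars the mean ± SD. The groups overlap in every panel. The first cxC26 scr tumor lies among the cxC26 IL6KOs1 tumors in Nfkb2 (7.59) and Rela (7.08) and above them in Nfkbie (5.30).

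Nfkb2 encodes p100, which is both the precursor of p52 and an inhibitor of other subunits. It lies on the plus strand of chromosome 19, at 46300994 to 46312400 in GRCm38.p6. Its level was 7.59, 7.21, 7.07 and 6.98 log2 CPM in the cxC26 scr tumors (3205, 2396, 1910 and 1942 reads) and 7.59, 7.82, 7.55 and 7.65 in the cxC26 IL6KOs1 tumors (3137, 3128, 2949 and 2900 reads). Of the cxC26 scr tumors, 3 were below every cxC26 IL6KOs1 tumor, and the first cxC26 scr tumor was among them. The mean was 7.65 ± 0.12 in cxC26 IL6KOs1 and 7.21 ± 0.27 in cxC26 scr tumors (SD, n = 4 each), a rise of 0.44 on the log2 scale (SE 0.124, limma adjusted p = 0.0151). The other genes of chromosome 19 had a median change of 0.33, and with each chromosome's median removed the Nfkb2 difference was 0.11 (adjusted p = 0.542). Without the fourth cxC26 scr tumor it was 0.36 (adjusted p = 0.0512), and with no filter on low genes its adjusted p was 0.0531. In these bulk tumors more cells of a type that expresses a gene and more RNA of it per cell cannot be told apart, and leukocyte markers rose beside Nfkb2. Their part in the change was not tested. Psd and 4833438C02Rik overlap Nfkb2. Psd had 375 to 720 reads per tumor, and 4833438C02Rik had 89 to 126 in cxC26 scr and 120 to 148 in cxC26 IL6KOs1 tumors. The strand setting of the read counts was not given in the sources used here.

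Rela encodes p65, the subunit that carries the transactivation domain of the canonical dimer, and it also lies on chromosome 19 (5637442 to 5648134, plus strand). Its level was 7.08, 6.59, 6.55 and 6.57 log2 CPM in the cxC26 scr tumors and 7.10, 7.04, 6.86 and 6.89 in the cxC26 IL6KOs1 tumors. As for Nfkb2, the first cxC26 scr tumor was within the range of the cxC26 IL6KOs1 tumors and the other 3 were below it. The difference was 0.27 on the log2 scale (95% interval 0.01 to 0.54) and did not pass the test (limma adjusted p = 0.0897), and the other genes of chromosome 19 had a median of 0.33. Omitting any 1 tumor other than the first cxC26 scr tumor gave Rela differences of 0.23 to 0.31 (adjusted p = 0.0975 to 0.216). Without the first cxC26 scr tumor the difference was 0.40 (adjusted p = 0.0038) for Rela and 0.57 (adjusted p = 0.0012) for Nfkb2. Rela and Nfkb2 are rich in GC, at the 94.6th and 94.7th percentile of the genes tested and thus in the class where that tumor deviated by 0.11. With the GC trend removed from all tumors, an alternative added after the data were seen, Rela had a difference of 0.30 (adjusted p = 0.0419) and Nfkb2 one of 0.46 (adjusted p = 0.00821).

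Nfkb1 encodes p105, the precursor of p50, and lies on the minus strand of chromosome 3 (135584655 to 135691969). Its level was 7.60, 7.29, 7.32 and 7.26 log2 CPM in the cxC26 scr tumors and 7.38, 7.63, 7.38 and 7.39 in the cxC26 IL6KOs1 tumors. In each group 1 tumor stood apart above the other 3. The difference of 0.08 (95% interval -0.13 to 0.29) did not pass the test (limma adjusted p = 0.55). Because both precursors were measured in the same libraries, their difference within each tumor does not depend on the scaling of the library. It can still depend on base composition, since Nfkb2 is at the 94.7th and Nfkb1 at the 25.3rd percentile of GC content. In their classes the first cxC26 scr tumor deviated by 0.11 and -0.05. The difference was not computed with the GC trend removed. Nfkb2 minus Nfkb1 was -0.02, -0.08, -0.25 and -0.28 log2 CPM in the cxC26 scr tumors and 0.22, 0.19, 0.16 and 0.25 in the cxC26 IL6KOs1 tumors. The groups did not overlap, and the precursor of p52 moved up against that of p50 by 0.36 (two-sided exact permutation test over the 70 splits of the tumors, p = 0.0286, the smallest that they can give). Leaving out each tumor in turn gave 0.32 to 0.41. The medians of the other genes on chromosomes 19 and 3 were 0.33 and 0.18.

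Relb, the partner of p52, is on the minus strand of chromosome 7 (19606217 to 19629438). Its level was 5.68, 5.34, 5.34 and 5.14 log2 CPM in the cxC26 scr tumors and 5.51, 5.70, 5.35 and 5.14 in the cxC26 IL6KOs1 tumors, so the groups covered nearly the same range. The difference was 0.05 (95% interval -0.26 to 0.35, limma adjusted p = 0.81), on a chromosome whose other genes had a median of -0.27. Relb minus Rela was -1.32 ± 0.11 in cxC26 scr and -1.55 ± 0.17 in cxC26 IL6KOs1 tumors (SD, n = 4 each). The change of -0.23 did not reach the threshold in the exact permutation test (two-sided p = 0.0857), but it did without the second cxC26 IL6KOs1 tumor (-0.29, exact p = 0.0286).

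Rel encodes c-Rel, the subunit best known from lymphocytes and myeloid cells, and it was the least expressed member. It lies on the minus strand of chromosome 11 (23736847 to 23770969) and had 104, 123, 107 and 95 reads in cxC26 scr tumors and 112, 51, 61 and 103 in the cxC26 IL6KOs1 tumors. The cxC26 IL6KOs1 tumors 2 and 3 were low, and the other 2 were at the level of the controls. The means were 2.37 ± 0.51 log2 CPM in cxC26 IL6KOs1 and 2.78 ± 0.16 in cxC26 scr tumors (SD, n = 4 each), and the difference of -0.41 did not pass the test (95% interval -0.93 to 0.11, limma adjusted p = 0.193).

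**Figure D2:**
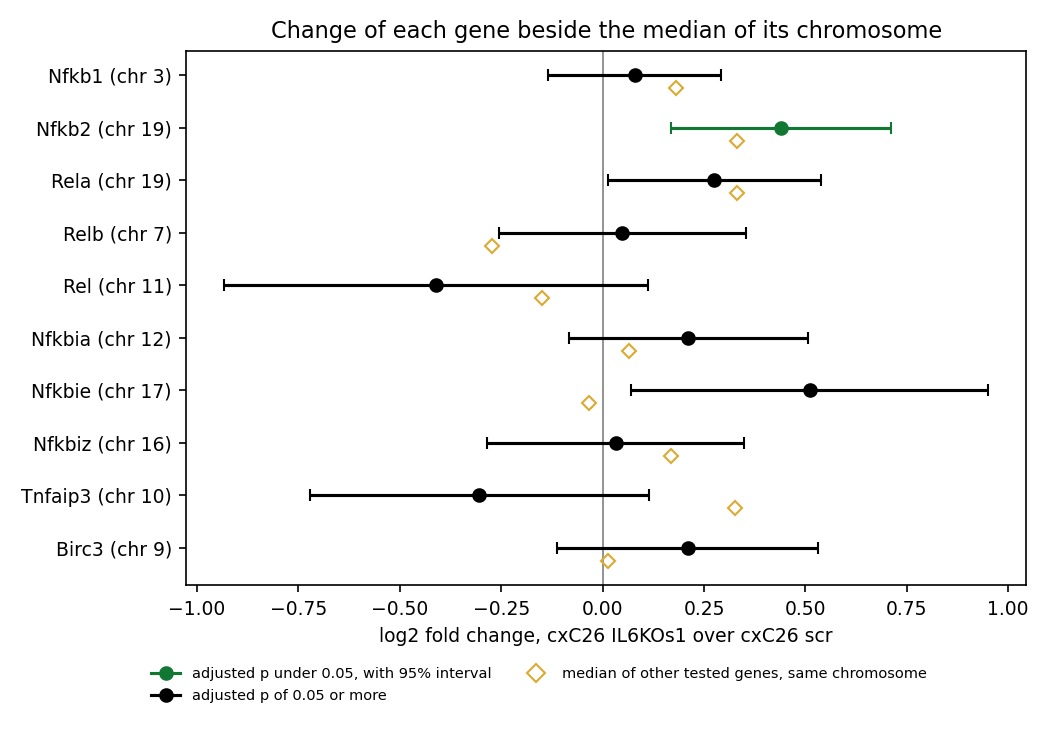
Log2 fold change of each NF-kB gene in cxC26 IL6KOs1 over cxC26 scr tumors (horizontal axis; points with 95% intervals from limma, 4 tumors a group) and the median change of the other tested genes on its chromosome (open diamonds). The point of Nfkb2 (0.44, green) is the only one with an adjusted p under 0.05, and it lies beside a chromosome median of 0.33; Tnfaip3 (-0.30) lies farthest from its own (0.33).

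None of the 3 IkB family genes among the members passed the test. Nfkbia encodes IkB-alpha, the classic inhibitor that NF-kB induces in a feedback loop, and lies on the minus strand of chromosome 12 (55489409 to 55492647). It stood at 6.05, 6.12, 5.85 and 5.88 log2 CPM in the cxC26 scr tumors and 6.52, 6.15, 6.27 and 5.81 in the cxC26 IL6KOs1 tumors. The cxC26 IL6KOs1 tumors held both the highest and the lowest value. The difference was 0.21 (95% interval -0.08 to 0.51, limma adjusted p = 0.234). Without the fourth cxC26 IL6KOs1 tumor, the lowest, it was 0.34 (adjusted p = 0.0379). Omitting any other single tumor gave 0.10 to 0.26 (adjusted p = 0.198 to 0.538).

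Nfkbie, which encodes IkB-epsilon, an inhibitor that acts with a delay, had the largest difference of the 10 members. It lies on the plus strand of chromosome 17 (45555700 to 45563169). Its level was 5.30, 4.83, 4.31 and 4.20 log2 CPM in the cxC26 scr tumors (656, 461, 282 and 283 reads) and 5.16, 5.27, 5.15 and 5.10 in the cxC26 IL6KOs1 tumors (582, 535, 561 and 495 reads). The cxC26 IL6KOs1 tumors lay close together at 5.17 ± 0.07, whereas the controls were spread widely at 4.66 ± 0.51 (SD, n = 4 each). The difference was 0.51 (SE 0.201, 95% interval 0.07 to 0.95) and did not pass the test (limma adjusted p = 0.0627). Without the first cxC26 scr tumor, the highest control, it was 0.72 (adjusted p = 0.0038). Without the fourth, the lowest control, it was 0.36 (adjusted p = 0.182). Omitting any other single tumor gave 0.39 to 0.57 (adjusted p = 0.0749 to 0.174). The other genes of chromosome 17 had a median of -0.03.

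Nfkbiz encodes IkB-zeta, an atypical nuclear member of the family that is known to help NF-kB switch on secondary targets such as Il6. It lies on the minus strand of chromosome 16 (55811375 to 55838954). Its level was 6.0, 6.17, 6.37 and 6.43 log2 CPM in the cxC26 scr tumors and 6.60, 5.95, 6.44 and 6.10 in the cxC26 IL6KOs1 tumors. The ranges of the groups overlapped almost wholly, with a difference of 0.03 (95% interval -0.29 to 0.35, limma adjusted p = 0.881).

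Tnfaip3 encodes A20, the ubiquitin-editing enzyme that switches the pathway off. It lies on the minus strand of chromosome 10 (19000910 to 19015410). Its level was 4.84, 4.81, 4.64 and 4.62 log2 CPM in the cxC26 scr tumors and 4.85, 3.86, 4.24 and 4.75 in the cxC26 IL6KOs1 tumors. The cxC26 IL6KOs1 tumors 2 and 3 were low, as for Rel, with 201 and 298 reads against 354 to 479 in the controls. In the same 4 tumors the pan-leukocyte marker Ptprc was 7.48, 5.87, 6.51 and 6.84 log2 CPM, so that tumors 2 and 3 were also the lowest of their group for it. The same held for the pan-leukocyte markers Cd53, Coro1a and Cytip, but Laptm5 (6.86, 6.18, 6.26 and 6.21) was lowest in tumors 2 and 4. In the cxC26 scr tumors Ptprc was 5.31, 5.59, 5.81 and 5.87 log2 CPM, the reverse of the order of Tnfaip3. The part of leukocytes in the low values was not tested. The difference of -0.30 in Tnfaip3 did not pass the test (95% interval -0.72 to 0.11, limma adjusted p = 0.228). The other genes of chromosome 10 had a median of 0.33, and with the chromosome medians removed Tnfaip3 was the only member called, with a difference of -0.63 (adjusted p = 0.0271).

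Birc3 encodes cIAP2, a ubiquitin ligase of the TNF receptor complex that protects cells from death. It lies on the minus strand of chromosome 9 (7847468 to 7873205). Its level was 4.76, 4.99, 4.87 and 4.81 log2 CPM in the cxC26 scr tumors and 5.55, 4.82, 4.94 and 4.95 in the cxC26 IL6KOs1 tumors. Only the first cxC26 IL6KOs1 tumor, with 760 reads, was above all controls. The difference was 0.21 (95% interval -0.11 to 0.53, limma adjusted p = 0.28).

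Scaled to transcript length, the members spanned more than 5 units of log2 RPKM (CPM per kilobase of transcript). In the cxC26 scr tumors Nfkb2 was highest at 5.56 ± 0.25 log2 RPKM (SD, n = 4), followed by Nfkb1 at 5.33, Nfkbia at 5.32 and Rela at 5.26, and these 4 neighbours overlapped in their ranges over tumors. Relb at 4.23 and Nfkbiz at 4.20 formed the next level, Birc3 at 3.44 and Nfkbie at 3.38 the one below, and Tnfaip3 at 2.58 and Rel at -0.12 came last. The steps from Rela to Relb, from Nfkbiz to Birc3, from Nfkbie to Tnfaip3 and from Tnfaip3 to Rel were larger than the spread, with ranges that did not overlap, and neighbours within a level overlapped. In the cxC26 IL6KOs1 tumors Nfkb2, at 6.0 log2 RPKM, was above the range of the next gene, Rela at 5.53, and the order was otherwise nearly kept, with Rela and Nfkbia (5.53) above Nfkb1 (5.40) and Nfkbie (3.89) above Birc3 (3.65). Rel was again last at -0.53. The scaling used 1 transcript length per gene, from 1578 bases for Nfkbia to 7466 for Rel.

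**Figure D3:**
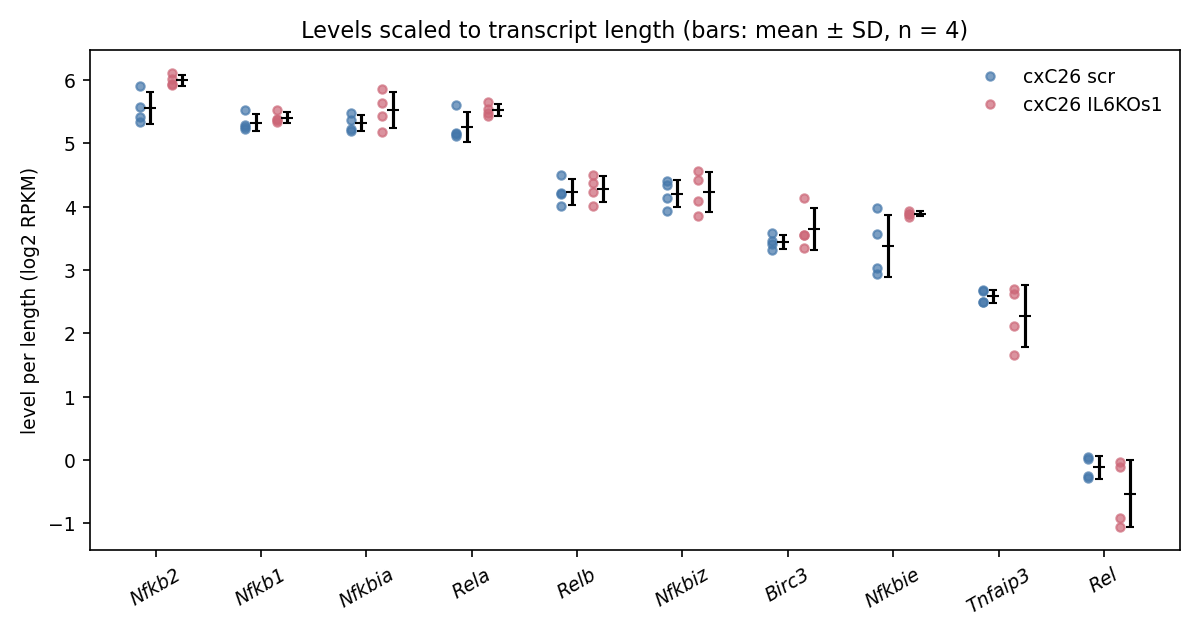
Level of each NF-kB gene scaled to transcript length (vertical axis, log2 RPKM) in 4 cxC26 scr (blue) and 4 cxC26 IL6KOs1 tumors (red), with mean ± SD beside the points; genes are ordered by their mean in cxC26 scr. Nfkb2, Nfkb1, Nfkbia and Rela lie above 5 in every tumor and Rel lies below 0.1.

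Within the groups several members varied together. After the group means were removed, Nfkb2 followed Nfkb1 and Nfkbie over the 8 tumors with a Pearson r of 0.92 each and Rela with 0.86, and Nfkb1 and Relb had an r of 0.84. Rel instead followed Tnfaip3 (r = 0.88), and Birc3 had an r of 0.68 with Tnfaip3, 0.67 with Nfkbiz, 0.66 with Nfkbia and 0.65 with Rel. Nfkbiz ran against Nfkb2 (r = -0.77). Among the controls, each of Nfkb1, Nfkb2, Rela, Relb and Nfkbie was highest in the first cxC26 scr tumor, the one that deviated by GC content. Of these, Nfkb2, Rela, Relb and Nfkbie were between the 79.5th and the 94.7th percentile of GC content, but Nfkb1 was at the 25.3rd, in a class where that tumor deviated by -0.05. Rel and Tnfaip3 were lowest in cxC26 IL6KOs1 tumors 2 and 3. Of 13088 genes compared over the 8 tumors in this way, those most like Nfkb2 were Ptp4a3, a phosphatase gene (r = 0.985), Scamp4, a membrane trafficking gene (r = 0.984), and Cs, which encodes citrate synthase (r = 0.981). These are descriptions over tumors that differed in depth and, for the first cxC26 scr tumor, in base composition, and the part of either in the r values was not tested.

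The other genes of the pathway were taken from 5 lists, set beside the 39.8% of all genes tested that changed in either direction. Of the kinases and adaptors, 27 of 28 could be tested, 4 rose and 0 fell, or 14.8%, with a median log2 fold change of 0.11. Ikbkg, which encodes NEMO, the regulatory subunit of IKK, was 6.15, 6.18, 6.40 and 6.51 log2 CPM in the cxC26 scr tumors and 6.71, 6.73, 7.07 and 7.06 in the cxC26 IL6KOs1 tumors. The groups did not overlap, and the gene rose by 0.58 (SE 0.116, limma adjusted p = 0.00228). Malt1, the paracaspase of antigen receptor signaling, rose by 0.57 (adjusted p = 0.00489), and Myd88, the adaptor of Toll-like and IL-1 receptors, by 0.36 (adjusted p = 0.026). The Myd88 call was lost without cxC26 scr tumor 2, 3 or 4 or cxC26 IL6KOs1 tumor 2 or 4, with differences of 0.30 to 0.35. The remaining call was Card9, an adaptor of myeloid cells, with a rise of 1.09 (adjusted p = 0.00672), and like the kinases that follow it is named here after its values were seen. The kinases that define the arms did not pass the test, with differences of 0.26 for Chuk (adjusted p = 0.0563), -0.21 for Ikbkb (0.0657) and -0.16 for Map3k14 (0.199). The number of genes called higher was 7 with quantile normalization and 8 with the GC trend removed, and without the first cxC26 IL6KOs1 tumor 1 gene was called lower.

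Of 17 other inhibitors and IkB genes, all tested, 5 rose and 3 fell, or 47.1%, with a median of 0.05. Bcl3, an atypical IkB protein that works with p50 and p52 dimers in the nucleus, had the largest fall. It had 5.22, 4.93, 5.0 and 5.0 log2 CPM in the cxC26 scr tumors (622, 493, 454 and 492 reads) and 3.78, 3.19, 3.44 and 3.62 in the cxC26 IL6KOs1 tumors (222, 126, 171 and 178 reads). Every cxC26 IL6KOs1 tumor was more than 1 unit below every control, and Bcl3 fell by 1.53 on the log2 scale, or 2.89-fold (SE 0.138, limma adjusted p = 1.4e-05), where the other genes of chromosome 7 had a median of -0.27. Among genes of this list that rose were Tnip1 (0.60, adjusted p = 0.0223), a partner of A20, and the deubiquitinases Cyld (0.34, adjusted p = 0.0101) and Otulin (0.28, adjusted p = 0.0232). Nfkbib, which encodes IkB-beta, fell by 0.39 (adjusted p = 0.0243) and the ubiquitin ligase Itch by 0.37 (adjusted p = 0.0215). Apart from Bcl3 and Cyld these calls were close to the threshold, and each was lost when 1 tumor was left out: cxC26 scr 2, 3 or 4 or cxC26 IL6KOs1 2 for Tnip1 (differences of 0.54 to 0.59), cxC26 scr 3 or cxC26 IL6KOs1 1 or 3 for Otulin (0.25 to 0.27), cxC26 IL6KOs1 4 for Nfkbib (-0.32), and cxC26 scr 3 or 4 or cxC26 IL6KOs1 2 or 3 for Itch (-0.35 to -0.28). Nfkbib lies on chromosome 7 like Bcl3, and with the chromosome medians removed its difference was -0.12 (adjusted p = 0.492) and that of Itch -0.29 (adjusted p = 0.0665), so that 1 gene of the list was called lower. With no filter on low genes 1 was called lower as well, and the Tnip1, Nfkbib and Itch calls were lost. Otulin had a difference of 0.14 (adjusted p = 0.234) with the chromosome medians removed. Tnip3 and Irak3, named after their values were seen, also rose, but had 64 and 90 reads at most. Both were left out by a filter at a mean of 3 log2 CPM, with which 3 genes of the list were called higher, as they were without the third cxC26 scr tumor. Tnip3, counted 1, 8, 0 and 2 times in the controls, was below 1 CPM in each of them and above it in every knockout tumor. It met the requirement of 1 CPM in 4 or more tumors only through the knockout group. The direction of its change, counted among the 5 rises, was thus set by that filter.

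Of the activating ligands and receptors, 22 of 27 could be tested, 9 rose and 3 fell, or 54.5%, with a median of 0.33. The alarmin gene Il33, of the IL-1 family, had 1006, 1014, 875 and 1047 reads in cxC26 scr tumors and 221, 202, 276 and 258 in the cxC26 IL6KOs1 tumors, a fall of 3.99-fold (log2 fold change -2.0, SE 0.11, limma adjusted p = 6.48e-07). Il1r1, the receptor of IL-1, was 7.49, 7.47, 7.55 and 7.73 log2 CPM in the cxC26 scr tumors and 5.95, 6.04, 6.35 and 6.16 in the cxC26 IL6KOs1 tumors, and it fell 2.70-fold (adjusted p = 2.49e-06). In both genes the groups were far apart. Tnfrsf12a, the receptor of TWEAK, which signals through the non-canonical arm, fell by 0.24 (adjusted p = 0.0169). The Toll-like receptors Tlr2 and Tlr3 rose by 1.42 (adjusted p = 0.000305) and 1.11 (adjusted p = 0.0011), and the TNF receptor gene Tnfrsf1b by 0.66 (adjusted p = 0.00192). Tnf itself was low, with 20, 19, 18 and 19 reads in cxC26 scr tumors and 97, 40, 48 and 47 in the cxC26 IL6KOs1 tumors, and rose by 1.55 (adjusted p = 0.000988). It was named after its values were seen. With a filter at a mean of 3 log2 CPM, 3 genes of this list were called higher. The macrophage markers rose with these receptors, and their part was not tested.

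Of the inflammatory target genes, 26 of 32 could be tested, 11 rose and 2 fell, or 50%, with a median of 0.54. Mmp9, a gelatinase of tumor cells and myeloid cells, had 113, 156, 60 and 53 reads in cxC26 scr tumors and 2792, 2340, 4935 and 3438 in the cxC26 IL6KOs1 tumors, a rise of 38.6-fold (log2 fold change 5.27, SE 0.294, limma adjusted p = 6.72e-07). Csf1, the growth factor of macrophages, rose 5.18-fold (adjusted p = 4.59e-06) and Ch25h, a cholesterol hydroxylase of the interferon response, 3.57-fold (adjusted p = 9.07e-05). Il6, disrupted by design, and the collagenase Mmp13 were the genes that fell. Mmp13 was 4.81, 5.85, 5.86 and 5.88 log2 CPM in the cxC26 scr tumors and 5.46, 3.55, 3.22 and 2.75 in the cxC26 IL6KOs1 tumors, so that the first tumor of each group overlapped, and it fell by 1.85 (adjusted p = 0.00935). Without the first cxC26 IL6KOs1 tumor 6 genes of this list were called lower.

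Of 15 survival target genes, all tested, 6 rose and 3 fell, or 60%, with a median of 0.07. The rises included the related genes Bcl2a1a, Bcl2a1b and Bcl2a1d, named after their values were seen. They had 131, 253 and 194 reads in the first cxC26 IL6KOs1 tumor, 28 to 76 in the others of that group and 7 to 49 in the controls. Fth1, the ferritin heavy chain, rose 2.62-fold (adjusted p = 0.000407), on chromosome 19 beside Nfkb2 and Rela, and with the chromosome medians removed the rise was 1.06 on the log2 scale (adjusted p = 0.00273). The mitochondrial superoxide dismutase Sod2 rose by 0.27 (adjusted p = 0.0209), and its call was lost without cxC26 scr tumor 3 or 4 or cxC26 IL6KOs1 tumor 3 (differences of 0.23 to 0.27). Pim1, a survival kinase, rose by 0.55 (adjusted p = 0.0467), a call that held only without cxC26 IL6KOs1 tumor 4 and was lost without any other tumor (0.33 to 0.61). The early response gene Ier3 was 7.22, 6.41, 7.04 and 6.94 log2 CPM in the cxC26 scr tumors and 6.21, 5.28, 5.44 and 5.50 in the cxC26 IL6KOs1 tumors, and fell 2.45-fold (adjusted p = 0.000579). The groups did not overlap. Gadd45b, which restrains JNK signaling, fell by 0.56 (adjusted p = 0.000964), and Cflar, the inhibitor of caspase-8, by 0.28 (adjusted p = 0.0192). The Cflar call was lost without cxC26 scr tumor 3 or 4 or cxC26 IL6KOs1 tumor 3 (-0.26 to -0.24), and its direction turned with the chromosome medians removed (0.06), where the other genes of chromosome 1 had a median of -0.34. The number of genes called higher was 3 without the third cxC26 scr tumor, and also 3 with no filter on low genes and with a filter at a mean of 3 log2 CPM.

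**Figure D4:**
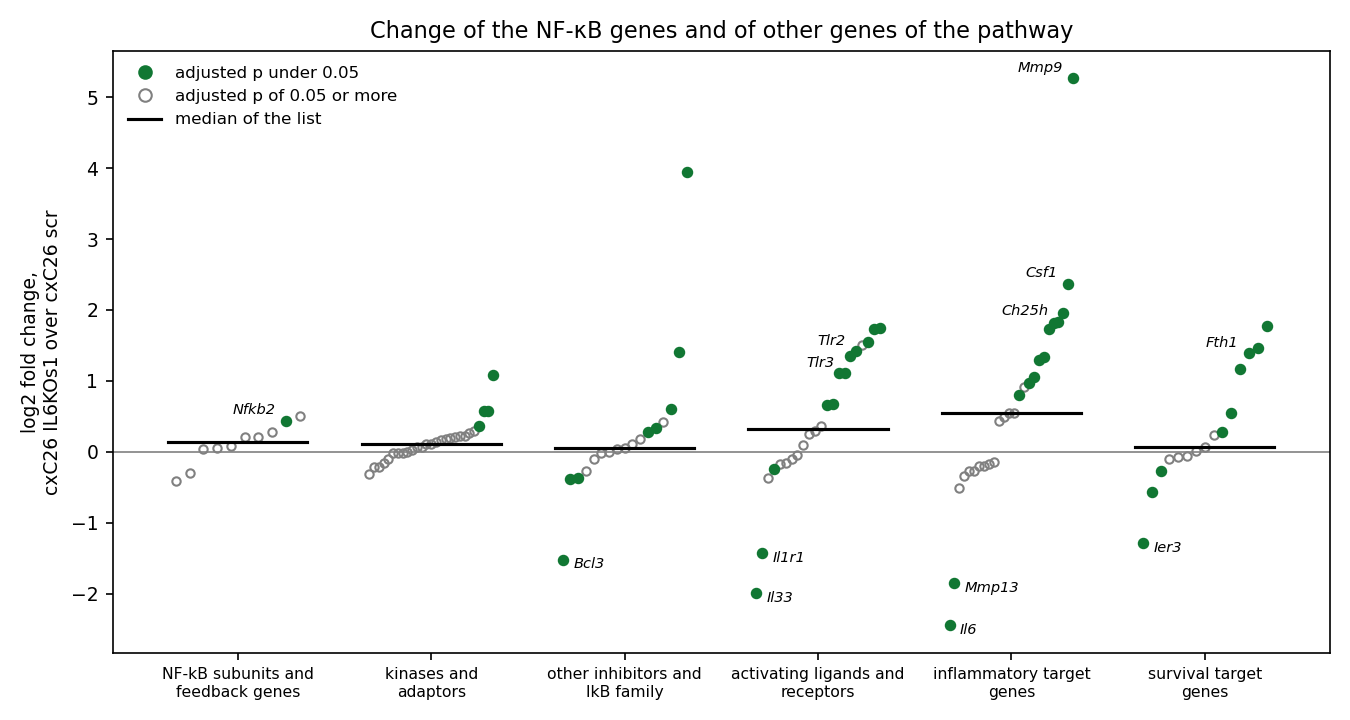
Log2 fold change in cxC26 IL6KOs1 over cxC26 scr tumors (vertical axis) of every tested gene of the NF-kB subunits and feedback genes and of 5 other lists of the pathway; filled green points have a limma adjusted p under 0.05, open points do not, and horizontal lines are list medians. The 10 NF-kB genes lie between -0.41 and 0.51, whereas the other lists reach from Il6 (-2.45), disrupted by design, to Mmp9 (5.27). Bcl3 lies at -1.53 and Il33 at -2.0.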

How the data were processed

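RNA sequencing was available for 8 tumors, 4 cxC26 scr and 4 cxC26 IL6KOs1, grouped by their titles. The authors aligned the reads to GRCm38/mm10 with HISAT2 and deposited log2 CPM in the form that limma-voom gives, with 0.5 reads added to each count; the version of bcl2fastq was 2.17, and other versions, the annotation and the strand setting are not given in the sources used here. Reads were recovered from the deposited log2 values, and 100% came out whole within 0.01. Totals of 14158989 to 17048062 reads set the precision of low genes, and intervals cover the spread between these tumors only.

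The 13262 genes that reached 1 CPM in 4 or more tumors were fitted with limma 3.58.1 (lmFit, eBayes with a mean-variance trend) in R 4.3.3 on the deposited log2 values, without covariates, and p-values were adjusted over all of them by the Benjamini-Hochberg method, with a threshold of 0.05. Differences between 2 genes within a tumor were compared by exact permutation tests. The fit was tested on simulated data. The members, pathway lists and marker lists were chosen with earlier results of these data known. Named genes are the 10 members, Il6 and, from each list, up to 3 of the largest rises and falls whose mean reached 3 log2 CPM; others are named as chosen after their values were seen. Gene positions and promoters are from RefSeq (GRCm38.p6), transcript length and GC content from GENCODE M21.

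The alternatives tried were no filter, a stricter filter (mean of 3 log2 CPM or more), quantile normalization, median re-centring, a replicate block, no variance trend, voom weights on the recovered reads, log2(CPM + 1), removal of chromosome medians, each tumor left out in turn, and removal of the GC trend, which was added after the data were seen. Protein sequences were not analysed here.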

Additional observations from a re-analysis of the deposited data

Results flagged for a closer look

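Dixon's test at the 95% level was run on 76 groups, those of the named genes and of the Nfkb2 minus Nfkb1 and Relb minus Rela differences. Single tumors stood apart from the other 3 of their group in 8 of them, where chance gives 3.8. Among the members these were Nfkb1 in the second cxC26 IL6KOs1 tumor, at 7.63 log2 CPM against 7.38 to 7.39, and Rela in the first cxC26 scr tumor, at 7.08 against 6.55 to 6.59. The first cxC26 scr tumor also stood apart for Myd88 (5.50 log2 CPM, others 5.08 to 5.16), Nfkbib (5.51, others 5.07 to 5.12) and Mmp13 (4.81, others 5.85 to 5.88). The remaining flags were Il6 in the third cxC26 IL6KOs1 tumor (2.46 log2 CPM, others 1.99 to 2.04), Malt1 in the first (4.56, others 4.17 to 4.20) and Sod2 in the fourth (6.17, others 6.29 to 6.32).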

How the results depend on the processing

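Of the members, Nfkb2 was called higher in the fit as reported. The number called higher was 0 with no filter, 2 with quantile normalization (Nfkb2 and Rela), 3 with the replicate block (Nfkb2, Rela and Nfkbie), 0 with chromosome medians removed and 2 with the GC trend removed (Nfkb2 and Rela); it was 1 (Nfkb2) under each of the other 5 settings that kept all tumors, of which the mean of at least 3 log2 CPM left Rel out. With chromosome medians removed 1 member, Tnfaip3, was called lower. Leaving out 1 tumor gave 0 to 3 members higher and 0 lower, with 2023 to 2540 of all genes higher and 2193 to 2674 lower. Directions turned with chromosome medians removed for Nfkb1 (-0.10), Rela (-0.057), Nfkbiz (-0.14) and Cflar (0.062), none of them called there. Leaving out 1 tumor gave -0.043 to 0.15 for Relb and -0.078 to 0.14 for Nfkbiz, both across 0. The change of Relb minus Rela was -0.29 to -0.16 with 1 tumor left out and passed the threshold without the second cxC26 IL6KOs1 tumor. The cause of these shifts was not tested, except where the alternative itself changed the genes tested. Deviations of tumors with the same number had correlations of -0.06, 0.06, 0.02 and -0.06. Of the cxC26 scr tumors only the second was most like the cxC26 IL6KOs1 tumor of its own number. The numbers thus gave no sign of a pairing, and were taken as pairs only in the replicate block. Depth limits Rel, with 51 to 123 reads a tumor.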
